A study of Homo sapiens with 18 samples.

Results

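The immediate early genes were taken as a list of 10 genes: FOS, FOSB, JUN, JUNB and JUND, which encode AP-1 subunits, ATF3, EGR1, IER2, IER3 and DUSP1. The list was given by name and used no measured value, and each gene was examined over its annotated body plus 5 kb on each side in GRCh37 (hg19), called its window below. Of the 10 genes 9 could be examined, out of 20162 protein-coding genes in the annotation. No peak of any list lay on chromosome 6 between positions 28455352 and 33484435, a stretch of 5.03 Mb with 184 protein-coding genes, and IER3 lies within it (chr6:30710976-30712325), so IER3 was not analysed here and the background for all counts is the 19978 genes outside that stretch. DNA-RNA hybrids were mapped by DRIP-seq, in which genomic DNA is cut with restriction enzymes and hybrids are precipitated with the S9.6 antibody, in HCT116 cells, an established human colorectal carcinoma line. Cells were untreated (NT) or treated with 10 μM camptothecin (CPT), which traps topoisomerase I on DNA, for 5 or 60 min. Each treatment had 2 biological replicates with 3 libraries apiece: DRIP, DRIP on DNA first digested with RNase H, and input, 18 samples in all. The data were the peak lists of the 6 DRIP and the 6 RNase H libraries, and the inputs served as controls in the authors' peak calling.

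Immediate early genes are transcribed within minutes of a growth factor or stress signal, without new protein synthesis. Most are short and GC-rich, and RNA polymerase II is already paused near the start site of many of them before the signal arrives. FOS and JUN family proteins pair through leucine zippers to form the AP-1 transcription factor, ATF3 is a related stress-induced factor of the same class, EGR1 is a zinc finger factor, IER2 encodes a small nuclear protein, and DUSP1 is a phosphatase that switches off the MAP kinases that induce the others. An R loop forms when nascent RNA pairs with the template strand behind the polymerase, and RNase H removes the RNA of such a hybrid, so a DRIP peak that rests on a hybrid should be weaker or missing after the digestion.

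The sequences of 3 promoters are given. EGR1 and FOS were taken from the 6 genes whose start lay under a peak in both NT lists, and DUSP1 was the only gene with no NT peak. Each is the 250 bases before the start site in GRCh37, written 5′ to 3′ on the gene's own strand, with motif matches in capitals: 2 CArG boxes in EGR1, TATAAA in FOS, and TGACGTCA followed by TATAAA in DUSP1.
EGR1, chr5.0:137800918-137801167, plus strand: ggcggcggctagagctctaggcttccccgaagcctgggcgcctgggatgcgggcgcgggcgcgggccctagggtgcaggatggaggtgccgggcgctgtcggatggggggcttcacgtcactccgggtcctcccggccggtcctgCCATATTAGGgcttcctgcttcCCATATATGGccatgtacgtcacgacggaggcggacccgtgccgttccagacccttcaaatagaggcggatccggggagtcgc
FOS, chr14.0:75745281-75745530, plus strand: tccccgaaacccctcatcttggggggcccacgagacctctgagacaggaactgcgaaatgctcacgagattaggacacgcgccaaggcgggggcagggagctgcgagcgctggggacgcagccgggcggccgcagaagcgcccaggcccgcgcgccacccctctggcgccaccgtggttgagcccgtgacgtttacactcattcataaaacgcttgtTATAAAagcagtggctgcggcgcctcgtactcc
DUSP1, chr5.0:172198199-172198448, minus strand: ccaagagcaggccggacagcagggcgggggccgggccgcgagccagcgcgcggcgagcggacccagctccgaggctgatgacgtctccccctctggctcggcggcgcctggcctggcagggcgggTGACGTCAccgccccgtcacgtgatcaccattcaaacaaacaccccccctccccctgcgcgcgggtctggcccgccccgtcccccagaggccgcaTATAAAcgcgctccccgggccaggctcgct
The CArG box, the site of serum response factor, began at positions -105 and -83 from the EGR1 start site. Within the stretch searched, no other of the 10 promoters held an exact match. Sites farther from the start and inexact matches were not searched. Over all 20162 promoters, searched on both strands from 250 bases before to 50 bases after the start, 1.21% held a CArG box. TGACGTCA, the cyclic AMP response element, began at -125 from the DUSP1 start and at -200 from the JUND start, and 2.67% of all promoters held it. TATAAA was present in 5 of the 10 promoters (FOS, FOSB, JUNB, ATF3 and DUSP1), against 9.8% of all promoters. The AP-1 motif TGACTCA was in none of the 10 and in 3.56% of all promoters. A match is a stretch of letters and not a measured binding site.

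A peak list ranks peaks within 1 library only. The fold enrichment of each peak over input was therefore turned into a percentile among all peaks of its own list, with the strongest peak at the top. The DRIP lists held 30314 and 52967 peaks in NT, 33852 and 56543 after 5 min of CPT, and 41668 and 72879 after 60 min, for replicates 1 and 2. The RNase H lists held 473 and 15790, 3439 and 50353, and 5392 and 67188 peaks. Replicate 2 had the longer list in all 6 pairs, by up to 33.4-fold in NT after RNase H, and the lists carry neither read counts nor depth, so a missing peak is a call below the authors' threshold and not the absence of hybrids.

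Nearly all of the immediate early genes already lay under DRIP peaks in untreated cells. A DRIP peak was present in the windows of 8 of the 9 genes in both NT replicates, against 45.3% of all protein-coding genes and 38.6% of those with a body of at most 10 kb. After 5 min of CPT the number was 9 of 9, against 49.2% of all genes and 35% of the short ones, and after 60 min it was again 9 of 9, against 59.3% and 45%. Over gene bodies alone, without the flanks, the numbers were 8 in NT, 7 after 5 min and 9 after 60 min, so the order of NT and 5 min depended on the flanks. The exception in NT was DUSP1, which had no peak in either NT list and a peak in all 4 CPT lists. By the presence of a peak in both replicates after treatment and in neither in NT, DUSP1 was thus gained at both times (4.64% of all genes at 5 min, 6.92% at 60 min), and 0 of the 9 genes were lost (2.18% and 1.55%). The other 8 genes had a peak in all 6 DRIP lists, a pattern found in 33.3% of all genes and 27.5% of the short ones. Within 1 kb of the start site, 7 genes had a peak in both NT replicates (16.1% of all genes), 8 after 5 min (15.6%) and 8 after 60 min (26.7%). Besides DUSP1, the gene without a promoter peak in NT was FOSB, whose peaks began downstream of the promoter. A promoter peak was called at FOSB only in 5-min replicate 1 and 60-min replicate 2, at percentiles 9.86 and 11.5.

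The peaks at these genes ranked near the top of their lists. The median percentile of the best peak per window was 95.9 and 97.0 in the NT replicates, 95.1 and 97.3 after 5 min and 96.5 and 99.3 after 60 min. Over all protein-coding genes with a peak, the corresponding medians were 75.2 and 83.1, 70.7 and 83.3, and 79.8 and 89.5, and over the short genes 88.1 and 92.7, 78.1 and 90.8, and 88.5 and 94.0. The medians of the immediate early genes thus moved little between treatments while remaining above those of both backgrounds in all 6 lists. The lowest DRIP values were all from 5-min lists, with FOSB at 70.9 in replicate 2, DUSP1 at 76.3 and 78.0, and JUN at 78.6 in replicate 1.

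**Figure D1:**
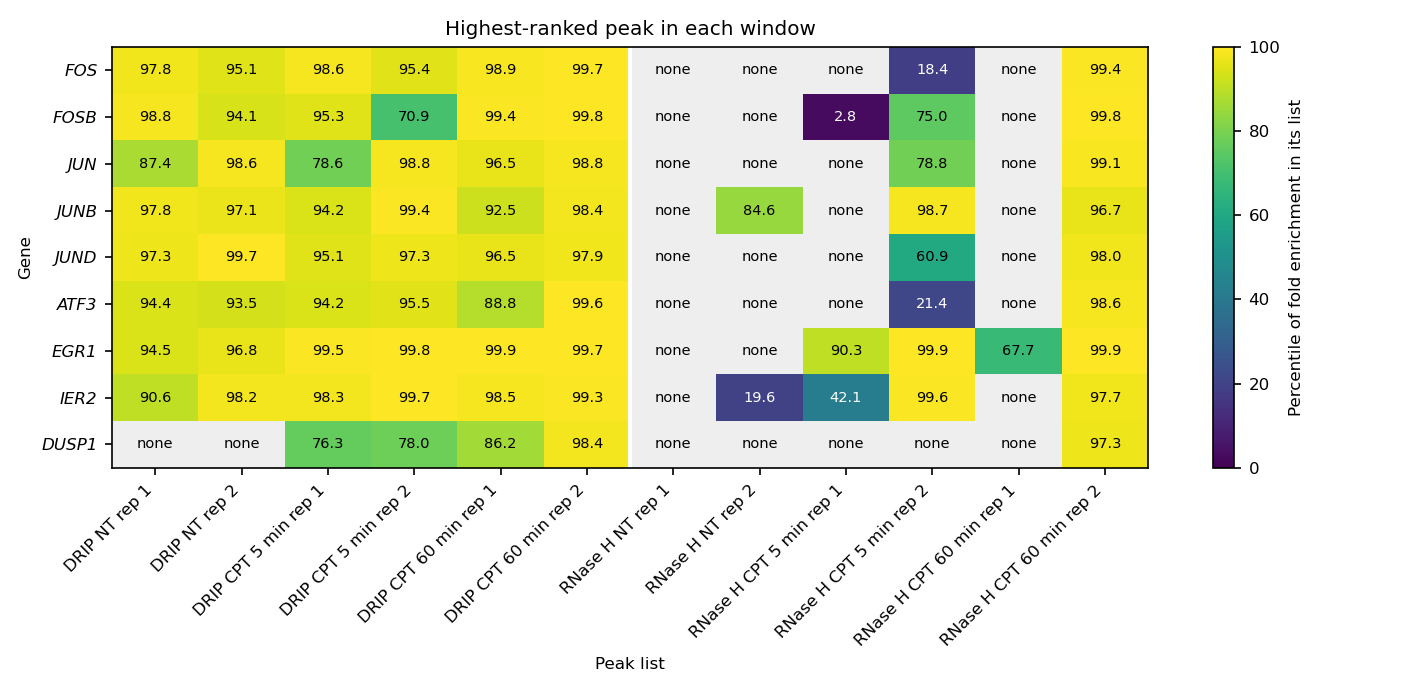
Percentile of the highest-ranked peak in the window of each of 9 immediate early genes (rows) in the 6 DRIP and 6 RNase H lists (columns), where the percentile is the rank of fold enrichment within that list and grey cells marked none had no peak. The DRIP cells of 8 genes are filled in all 6 lists, DUSP1 is empty in NT, and in the RNase H lists of replicate 1 only EGR1, FOSB and IER2 have any value.

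EGR1 (chr5:137801168-137804992, plus strand) had the most reproducible peak. In both NT lists, both 5-min lists and replicate 1 at 60 min, a peak of 5417 bp ran from -2411 to 3005 bp from the start site with identical edges, and it took in most of the 3825 bp gene. In replicate 2 at 60 min the peak was wider, 8181 bp from -2611 to 5569. The percentile of this peak was 94.5 and 96.8 in NT, 99.5 and 99.8 after 5 min and 99.9 and 99.7 after 60 min. Every CPT list thus ranked it above both NT lists, the groups did not overlap, and its place within a list moved while its edges were the same in 5 of the 6 lists. The bases of the window under peaks were 5417 and 5417 in NT, 5870 and 5920 after 5 min and 7176 and 12339 after 60 min, again without overlap between treatments. The added bases at 5 min came from a separate peak at the gene's end, of 453 and 503 bp, which ended 4234 bp from the start in both replicates. At 60 min a further peak lay between 5904 and 7498 bp from the start in replicate 2 and between 6702 and 7498 bp in replicate 1, and no NT or 5-min list had a peak there.

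FOS (chr14:75745529-75748933, plus strand) lay under a peak of 3929 bp from -871 to 3057 in NT replicate 1 and in 5-min replicate 2. In NT replicate 2 the peak was 3338 bp long, from -321 to 3016, and in 5-min replicate 1 the same stretch was split into peaks of 2800 and 664 bp. The window had 3929 and 3338 bp under peaks in NT, 3464 and 3929 bp after 5 min and 4432 and 5535 bp after 60 min. Values at 5 min lay inside the NT range, and values at 60 min lay above it. The best percentile was 97.8 and 95.1 in NT, 98.6 and 95.4 after 5 min and 98.9 and 99.7 after 60 min, where again only the 60-min lists were separate from NT.

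FOSB (chr19:45971253-45978437, plus strand) differed from FOS in the place of its peaks. A peak began 1523 bp downstream of the start in all 6 DRIP lists, and in 5 of them a peak ended at 5612 bp, so these peaks lay inside the gene, downstream of the start. The window had 4090 and 3553 bp under peaks in NT, 2520 and 2350 bp after 5 min and 4411 and 5915 bp after 60 min. FOSB was the only 1 of the 9 genes in which both 5-min values lay below both NT values. The percentile of its best peak in replicate 2 went from 94.1 (NT) to 70.9 (5 min) and 99.8 (60 min), and in replicate 1 it was 98.8, 95.3 and 99.4. In both 5-min lists the stretch held separate short peaks at its ends, with the middle uncovered, where NT replicate 1 had a single peak and NT replicate 2 a pair with a smaller gap. Counting only bases under a peak in both replicates, NT had 3553, 5 min of CPT 1333 and 60 min 4411.

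**Figure D2:**
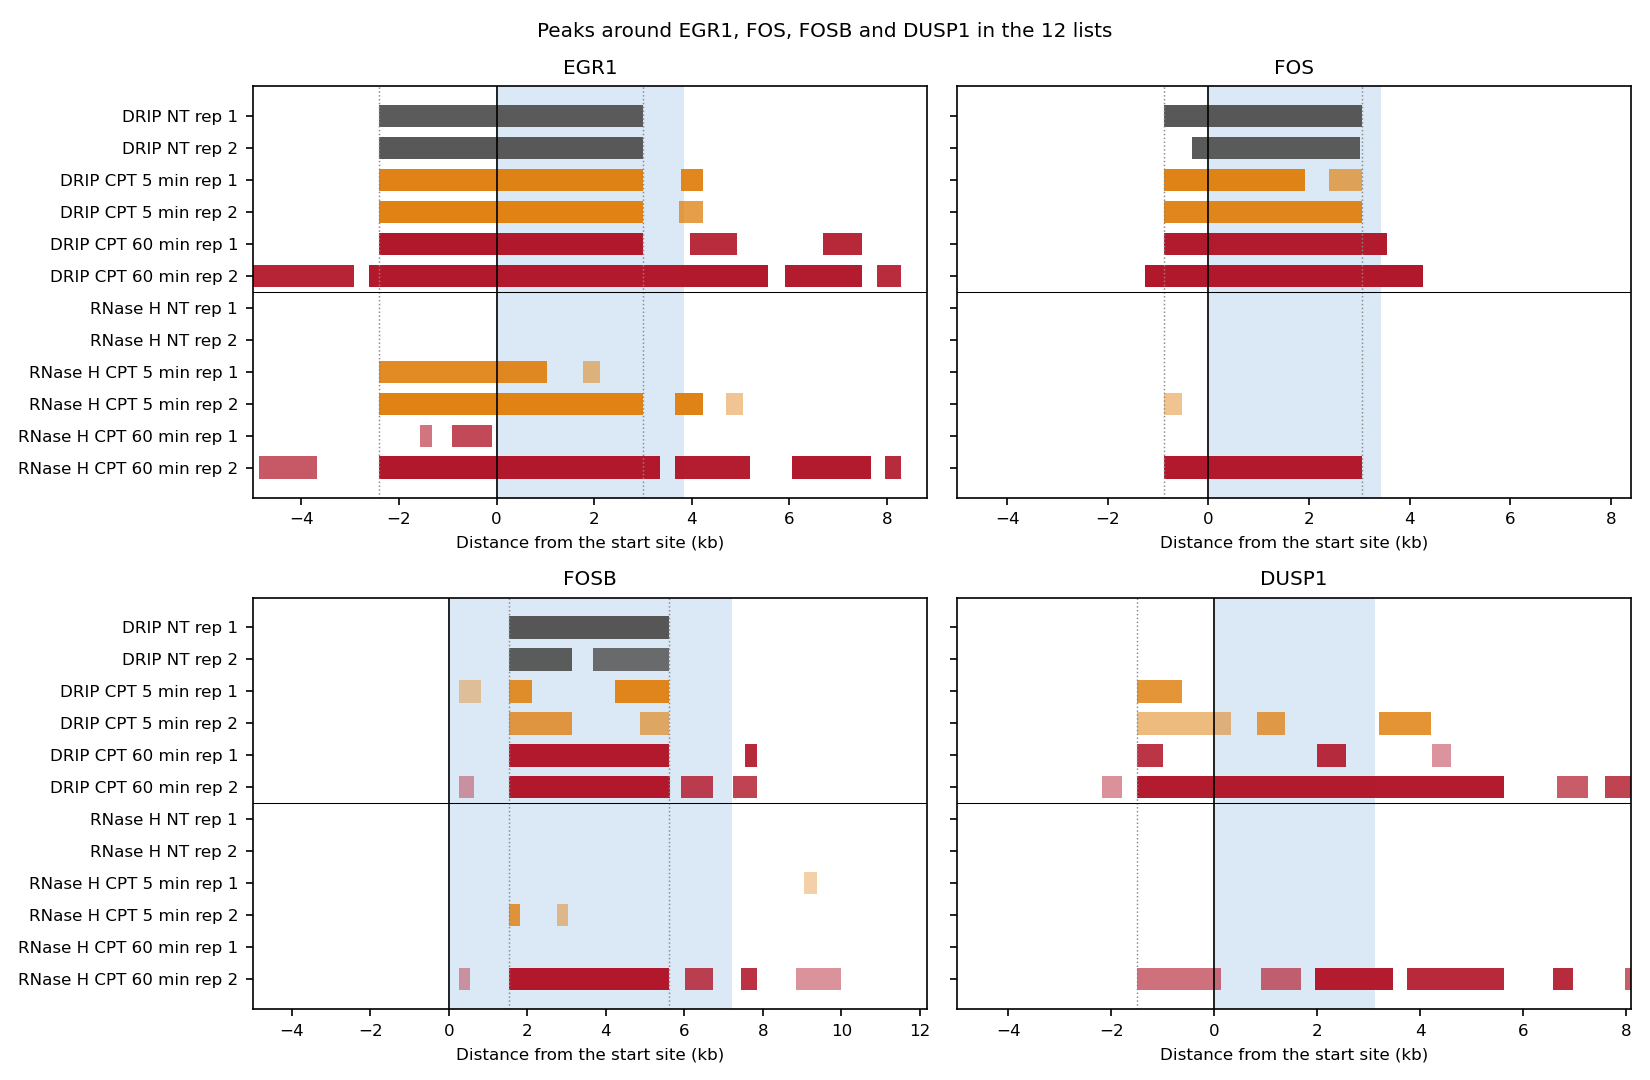
Peaks around EGR1, FOS, FOSB and DUSP1 in the 12 lists, drawn along the direction of transcription, with distance from the start site in kb on the horizontal axis and 1 list per row. Blue shading marks the gene body, the solid line the start site, dotted lines the edge positions shared by at least 4 lists at restriction sites, and paler bars peaks of lower percentile. The EGR1 peak keeps its edges from NT to 60 min in replicate 1, the FOSB peaks start 1523 bp inside the gene, and DUSP1 has no DRIP peak in NT.

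JUN (chr1:59242517-59249720, minus strand), the founding partner of the FOS proteins in AP-1, differed more between replicates in CPT-treated cells than in NT. Its window had 3737 and 4279 bp under peaks in NT, 1314 and 4911 bp after 5 min and 4547 and 7664 bp after 60 min. The low 5-min value came from replicate 1, where a single peak of 1314 bp over the start site at percentile 78.6 was left, while replicate 2 had a peak of 4582 bp at percentile 98.8. The 60-min values lay above both NT values, and the 5-min values lay on either side of them.

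JUNB (chr19:12902300-12904129, plus strand), a JUN family member that restrains JUN activity in many settings, had 4239 and 7470 bp under peaks in NT, 3170 and 6734 bp after 5 min and 7692 and 9979 bp after 60 min. The 60-min values were above both NT values by a small margin in replicate 1. JUND (chr19:18390504-18392432, minus strand), the JUN family member with the steadiest expression, had 2261 and 8395 bp under peaks in NT, 1316 and 5936 bp after 5 min and 3877 and 11081 bp after 60 min. Here replicates differed by more than treatments, and the groups overlapped in all 3 comparisons. Within each replicate, however, both genes had fewer bases under peaks at 5 min than in NT and more at 60 min. The JUNB window also takes in parts of HOOK2 and PRDX2, and peaks there cannot be told apart from those of JUNB.

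ATF3 (chr1:212738676-212794119, plus strand) is the longest gene of the set, with a body of 55444 bp and more than 1 annotated start. Within 1 kb of the start of the reference transcript at position 212782103, peaks were present in all 6 DRIP lists. A peak covered the start itself only in both NT lists and in 60-min replicate 2. In both 5-min lists the nearest peak ran from 812 to 1895 bp after the start. The window had 2573 and 2970 bp under peaks in NT, 2566 and 3192 bp after 5 min and 6338 and 10009 bp after 60 min. Values at 5 min were close to those in NT, and the lower 60-min value was 2.13 times the higher NT value. At the far upstream end of the gene, at -44277 bp from that start, a peak of 762 and 362 bp was present in the 5-min lists and of 355 bp in 60-min replicate 2, and no NT list had one. Peaks of this short stretch ranked low, at percentiles 67.2, 18.5 and 1.34.

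IER2 (chr19:13261225-13265725, plus strand) had the broadest peaks. In NT replicate 2 and 60-min replicate 2 single peaks of 17500 and 16375 bp covered the gene and reached -12403 and -11278 bp from its start, over the neighbouring STX10. The window had 6564 and 11843 bp under peaks in NT, 4893 and 11396 bp after 5 min and 7634 and 13302 bp after 60 min. Groups overlapped in all 3 comparisons, and replicate 2 was above replicate 1 in each treatment. The best percentile was 90.6 and 98.2 in NT, 98.3 and 99.7 after 5 min and 98.5 and 99.3 after 60 min. The best ranks in the window thus did not overlap between NT and CPT although widths did. Some of these best peaks lay away from the start. For peaks within 1 kb of the start the percentiles were 45.1 and 98.2 in NT, 98.3 and 99.5 after 5 min and 92.7 and 99.3 after 60 min. There NT and 60 min overlapped.

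DUSP1 (chr5:172195099-172198198, minus strand) was the only 1 of the 9 genes without a DRIP peak in untreated cells. Its window had 0 and 0 bp under peaks in NT, 869 and 3350 bp after 5 min and 1458 and 8630 bp after 60 min. In all 4 CPT lists a peak began at -1496 bp from the start. It was 869 bp long in replicate 1 and 1814 bp long in replicate 2 after 5 min, and 509 and 7118 bp long after 60 min. The percentile of the best peak was 76.3 and 78.0 after 5 min and 86.2 and 98.4 after 60 min, and in replicate 1 it was the lowest of the 9 genes at both times. A window without a peak in NT and with one in both replicates at 5 and at 60 min was found in 3.34% of all genes and in 1.77% of the short genes. Among the 9 genes it was 1, and at DUSP1 only 869 bp after 5 min and 1458 bp after 60 min were under a peak in both replicates.

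Many peak edges at these genes fell on cut sites of the restriction enzymes used before precipitation, which were Bsr GI, Eco RI, Hind III, Ssp I and Xba I. Sequences around the edges that recur at EGR1, FOS, FOSB and DUSP1 are shown because they set the outline of the peaks described above, each with 12 bases on either side of the recognition site, which is in capitals, on the gene's strand in GRCh37.
EGR1 upstream edge, Hind III, chr5.0:137798744-137798773: caagtaaacaaaAAGCTTggctggctgggt
EGR1 downstream edge, Bsr GI, chr5.0:137804157-137804186: gccctgcaccctTGTACAgtgtctgtgcca
FOS upstream edge, Ssp I, chr14.0:75744645-75744674: gacagtttccttAATATTcccacacatggc
FOS downstream edge, Ssp I, chr14.0:75748574-75748603: ttagaaatgaccAATATTatactaagaaaa
FOSB upstream edge, Xba I, chr19.0:45972764-45972793: cttttcggcgccTCTAGAggcagagggagg
FOSB downstream edge, Eco RI, chr19.0:45976850-45976879: cccccttaaaggGAATTCgatgccccccta
DUSP1 upstream edge, Xba I, chr5.0:172199678-172199707: gccctgaactttTCTAGAagaatccaggca
The EGR1 upstream edge was shared by 8 of the 12 lists, the FOSB upstream edge by 8, the FOS upstream edge by 6 and the DUSP1 upstream edge by 5. Of 292 edges of DRIP peaks in the 9 windows, 130 (44.5%) lay in a recognition site or within 4 bp of it, and 26 of the 146 peaks had both edges at sites. Over the whole DRIP lists the share of edges at sites was between 26.3% and 34.1%, and peaks there were shorter, with a median width between 464 and 563 bp against 846 to 3118 bp in the windows. At EGR1 the fragment between cut sites around the start is 5413 bp long and was spanned by peaks in 6 of 6 DRIP lists. The corresponding fragments of FOS (3929 bp) and JUN (4271 bp) were spanned in 4 of 6 lists each, that of JUNB (3511 bp) in 3, those of JUND (2213 bp) and ATF3 (1873 bp) in 3 each, that of IER2 (3757 bp) in 2 and that of DUSP1 (2863 bp) in 1. The FOSB start lies in a fragment of 407 bp, which no peak spanned.

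The share of the 9 windows under DRIP peaks was highest after 60 min of CPT. Of 178423 bp in all, 18.4% and 26.5% lay under peaks in the NT replicates, 14.6% and 26.7% after 5 min and 26.7% and 47.3% after 60 min. The 5-min lists lay on either side of NT, and the 60-min lists were above both NT lists, in replicate 1 by only 0.168 percentage points over the higher of them. The mean difference was -1.79 percentage points for 5 min against NT, with a two-sided exact permutation p = 1 (20.7% ± 8.61 against 22.4% ± 5.73, SD, n = 2). For 60 min against NT it was 14.6 percentage points (37.0% ± 14.6, SD, n = 2, exact permutation p = 0.333), and 0.333 is the smallest p that 2 libraries against 2 can give. For 60 min against 5 min it was 16.3 percentage points (exact permutation p = 0.667). No difference between 2 groups of 2 can pass a threshold of 0.05, and the SD of the 60-min replicates was as large as the difference from NT. Over all 19978 genes the mean shares for NT, 5 min and 60 min were 3.59%, 2.61% and 4.73%, and over the short genes 16.5%, 10.6% and 19.9%. As ratios to NT, the 60-min share was 1.65 at the immediate early genes and 1.31 over all genes. The 60-min list of replicate 2 was also the longest DRIP list. With all DRIP lists cut to the strongest 30314 peaks of each, the mean difference of 60 min from NT at the immediate early genes was 13.0 percentage points. Its exact permutation p was 0.667, so the 60-min lists were no longer both above both NT lists. The same held with a −log10 q of at least 3, with flanks of 10 kb and with summits required in the window (exact permutation p = 0.667 each). In the lists as deposited the difference was 8.27 in replicate 1 and 20.8 in replicate 2.

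**Figure D3:**
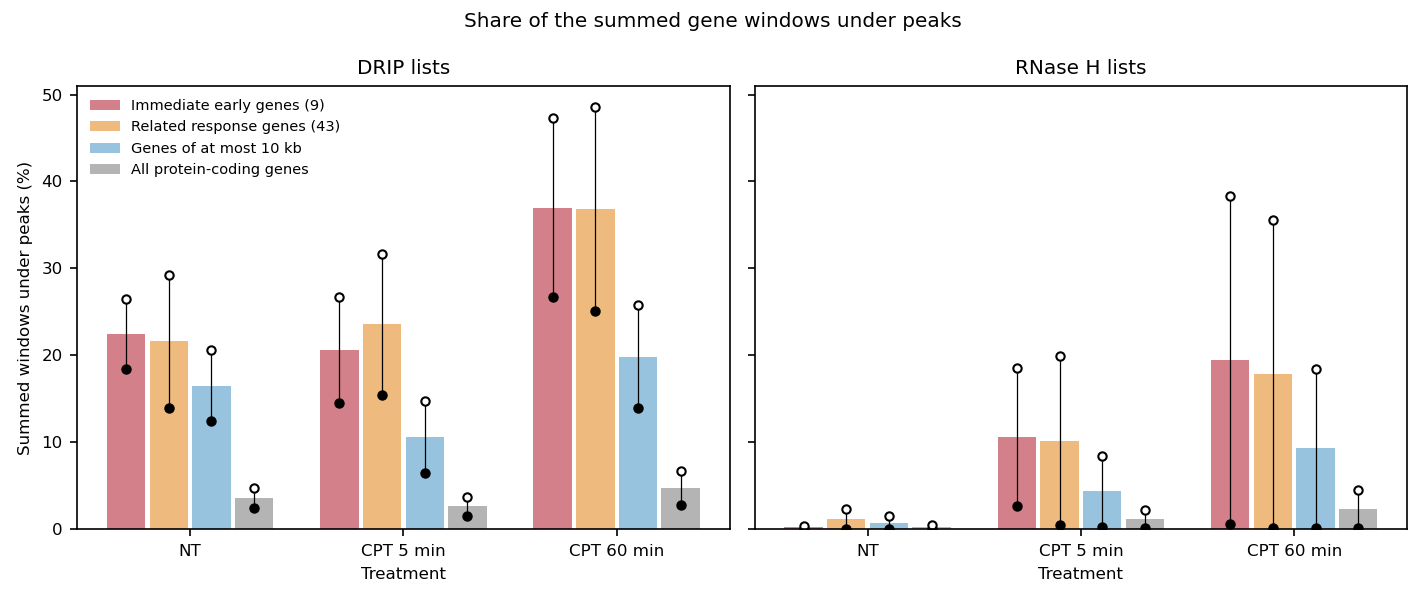
Share of summed gene windows under peaks (percent, vertical axis) by treatment in the DRIP lists (left) and the RNase H lists (right), for the 9 immediate early genes, 43 related response genes, genes with a body of at most 10 kb and all protein-coding genes. Bars are means of 2 replicates, filled points replicate 1 and open points replicate 2. The immediate early genes reach 26.7% and 47.3% in the DRIP lists at 60 min, and 0.605% and 38.3% in the RNase H lists.

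Gene by gene, both 60-min values of bases under peaks lay above both NT values at 7 of the 9 genes (FOS, FOSB, JUN, JUNB, ATF3, EGR1 and DUSP1), against 24.6% of all genes and 15.3% of the short genes, and at 0 genes below, against 6.68% of all genes. At 5 min the values lay above NT at 2 genes, EGR1 and DUSP1 (14.1% of all genes), and below at 1, FOSB (15% of all genes). Between 5 and 60 min the values were higher without overlap at 5 genes (FOS, FOSB, JUNB, ATF3 and EGR1), against 20.1% of all genes, and lower at none, against 3.12%. By the percentile of the best peak, 5 genes (FOS, FOSB, EGR1, IER2 and DUSP1) were higher at 60 min than in NT without overlap, against 25% of all genes, and 3 (EGR1, IER2 and DUSP1) at 5 min, against 15.8%. It was lower at none at either time, against 9.63% of all genes at 60 min and 14.3% at 5 min. Between 5 and 60 min it was higher at 3 (FOS, FOSB and DUSP1), against 19.8%, and lower at none, against 5.75%. EGR1 and DUSP1 were the genes separate from NT at both times by both measures. The mean gain in the share of a window at 60 min ranged from 7.81 percentage points at FOSB to 38.5 at DUSP1, with 31.4 at EGR1. These means rest largely on replicate 2: the gain was 11.1 in replicate 1 and 65.9 in replicate 2 at DUSP1, 12.7 and 50.1 at EGR1, and 1.87 and 13.7 at FOSB, and in replicate 1 alone it was largest at JUNB, at 29.2. An exact permutation test of 2 values against 2 without overlap always gives p = 0.333, so this p adds nothing to the separation by which the 7 genes were counted.

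**Figure D4:**
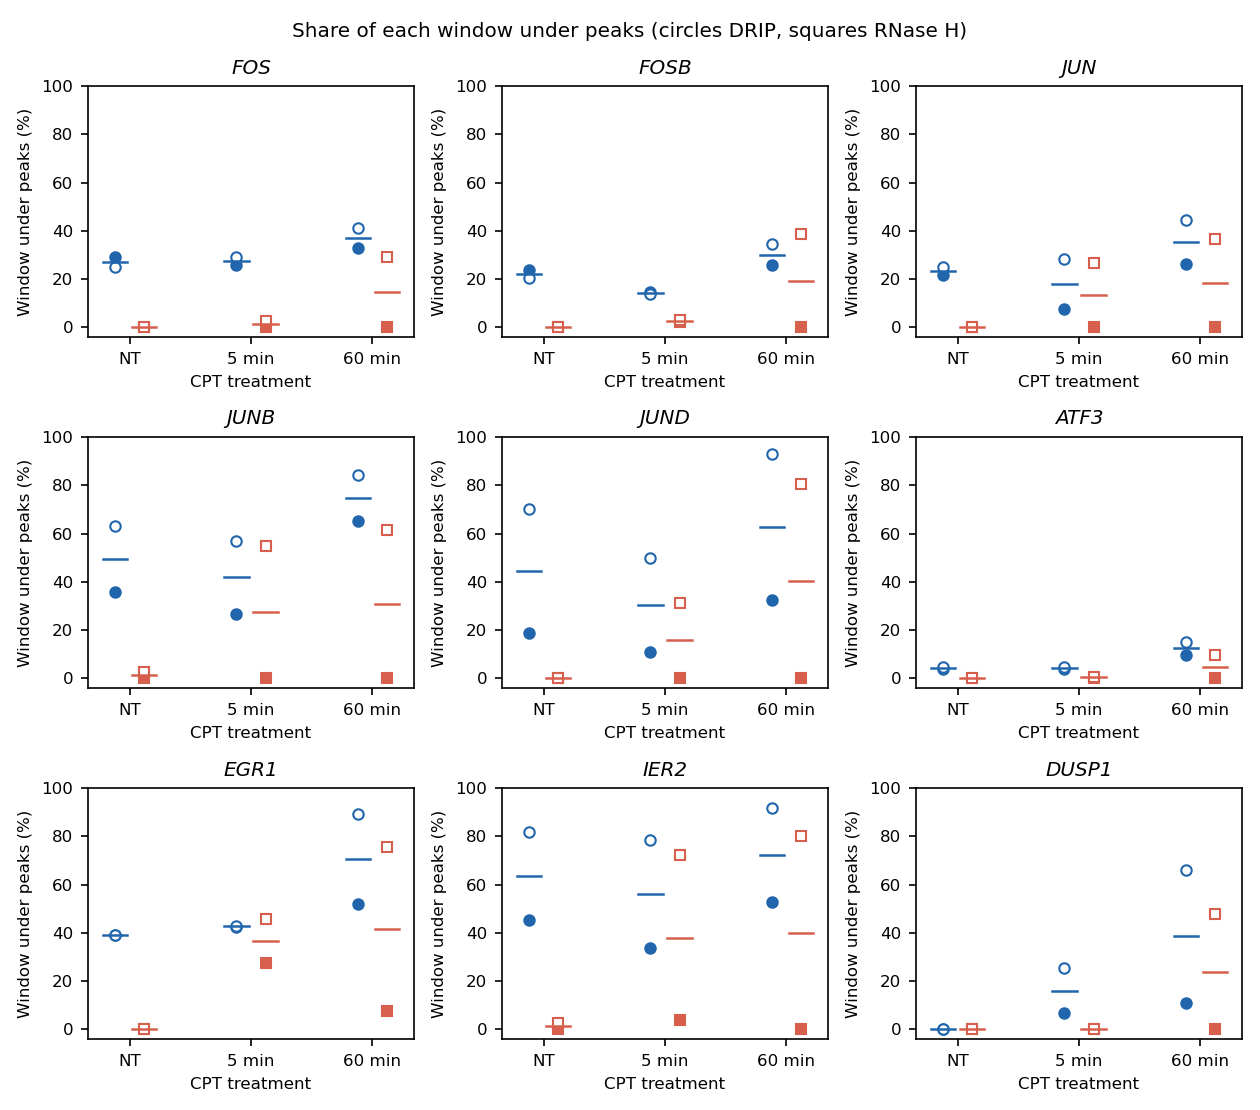
Share of each gene's window under peaks (percent, vertical axis) in NT, 5-min and 60-min CPT cells. Circles are DRIP lists and squares RNase H lists, filled symbols replicate 1, open symbols replicate 2, and horizontal lines the means of 2 replicates. FOSB is lower at 5 min than in NT in both replicates, DUSP1 is at 0 in NT, and the open squares lie near the open circles at 5 min at JUN, JUNB, EGR1 and IER2.

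Digestion with RNase H left few peaks at these genes in NT but many in the CPT lists of replicate 2. In both replicates together, an RNase H peak was present at 0 of the 9 genes in NT (0.871% of all genes, 0.291% of the short ones), at 3 after 5 min (EGR1, FOSB and IER2, against 8.31% and 3.54%) and at 1 after 60 min (EGR1, against 13.1% and 4.18%). Within 1 kb of the start the numbers were 0 (0.025% of all genes), 2 (EGR1 and IER2, 0.671%) and 1 (EGR1, 0.375%). In replicate 2 alone, RNase H peaks in the windows were present at 2, 8 and 9 genes, against 29.2%, 61.6% and 69.3% of all genes. In replicate 1 alone they were present at 0, 3 and 1, against 1.21%, 9.37% and 15.1%. The share of the windows under RNase H peaks was 0% and 0.393% in NT, 2.63% and 18.5% after 5 min and 0.605% and 38.3% after 60 min. The difference from NT was 10.4 percentage points at 5 min and 19.3 at 60 min, each with an exact permutation p = 0.333, and almost all of it came from replicate 2. DRIP exceeded RNase H in 6 of 6 pairs, by 16.6 percentage points on average (SD 8.15, lowest 8.25, two-sided exact sign-flip permutation p = 0.03125, the smallest that 6 pairs allow). These 6 pairs come from 2 replicate numbers, and with the replicate number as a block the same difference gave an exact p = 0.5, the smallest that 2 blocks allow.

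The same bases were often under a peak before and after digestion. In NT, 0% and 1.48% of the DRIP bases in the 9 windows were also under a peak of the RNase H list of the same replicate. After 5 min it was 14.6% and 66.0%, and after 60 min 2.27% and 77.9%. Over the whole DRIP lists the shares were 0.249% and 6.72%, 2.28% and 33.4%, and 0.927% and 51.0%, so in all 4 CPT pairs the windows were above the list and in both NT pairs below it. At EGR1 the RNase H list of 5-min replicate 2 held the same 5417 bp peak with the same edges, at percentile 99.9, and 100% of the EGR1 DRIP bases of that library lay under RNase H peaks. In 5-min replicate 1 an RNase H peak of 3435 bp began at the same upstream Hind III site, at percentile 90.3, and 64.5% of the DRIP bases were shared. FOS in contrast shared 0% and 8.76% of its DRIP bases after 5 min and 0% and 71.0% after 60 min. DUSP1 shared none after 5 min in either replicate and 0% and 71.9% after 60 min. When DRIP peaks that met a peak of the matching RNase H list were removed, 8 genes in NT, 5 at the 5-min time point and 3 at 60 min still had a DRIP peak in both replicates, and the difference between 60 min and NT in the share of the windows turned to -9.15 percentage points. This negative value is a mean of 2 replicates and comes from replicate 2. In replicate 1 the step removed no peak in the NT windows and, at 60 min, only the 5417 bp EGR1 peak. The higher mean coverage at 60 min thus holds for DRIP peaks as called. It does not hold, as a mean of both replicates, for those without an RNase H peak. How much of this comes from the lengths of the RNase H lists was not tested.

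**Figure D5:**
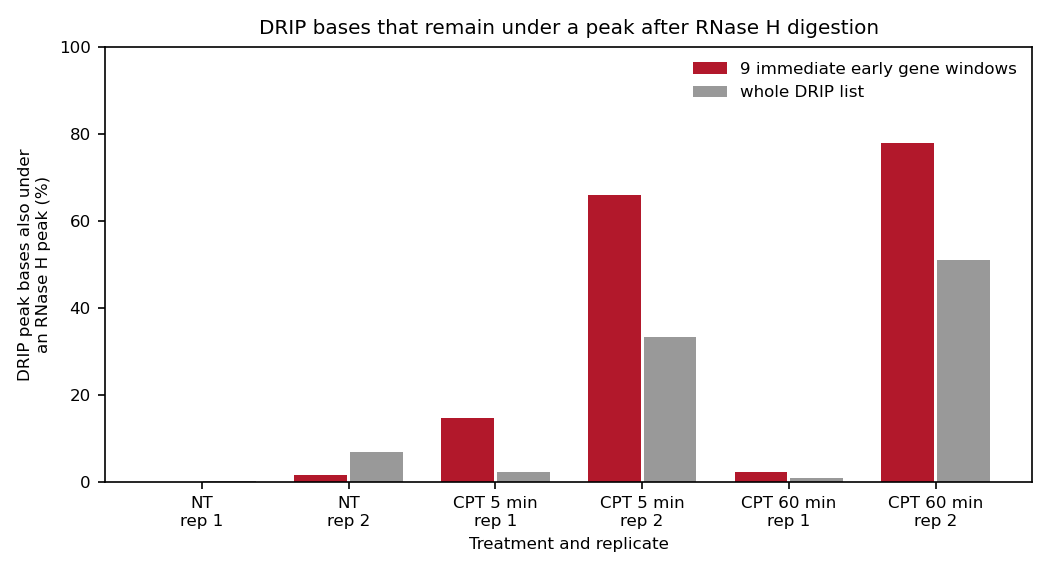
Share of DRIP peak bases that were also under a peak of the RNase H list of the same treatment and replicate (percent, vertical axis), for the 9 windows and for the whole DRIP list, 1 pair of bars per library. The windows reach 66.0% and 77.9% in replicate 2 after CPT, against 33.4% and 51.0% of the whole lists, and 1.48% in NT.

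Merged into regions, the windows held 18 of the 28518 regions of the series. A region was formed from overlapping peaks, and counted as present where both replicates of a treatment had a peak and as absent where neither did. Of the 18, 9 were present in all 3 treatments (no change), at 8 genes, with 2 of them at IER2, against 13% of all regions. Relative to NT, 2 regions were gained at 5 min (13.6% of all regions) and 5 at 60 min (29.7%), and 0 were lost at either time (12.6% and 12.5%). The gain seen at both times, a stable gain (5.33% of all regions), was the DUSP1 region at chr5:172192577-172199694. Its outline is that of the peak in 60-min replicate 2, the only list in which a peak covered the whole gene. The other gain at 5 min was the upstream end of ATF3 at chr1:212737826-212738587, which was not assigned at 60 min because only replicate 2 had a peak. The 4 late gains (14.6% of all regions), absent at 5 min and present at 60 min, all lay outside the gene bodies. They were at DUSP1 from 7596 to 8630 bp, at EGR1 from 5904 to 7498 bp and at FOSB from 7233 to 7858 bp after the start, and at JUND from -5527 to -4007 bp. Each of these 4 had an RNase H peak in 60-min replicate 2 and in no other RNase H list. By position, the share of downstream flanks under DRIP peaks was 8.94% and 20.6% in NT, 8.75% and 21.3% after 5 min and 23.9% and 50.2% after 60 min, while gene bodies had 21.8% and 26.4%, 13.8% and 25.8%, and 28.1% and 43.9%, and upstream flanks 21.2% and 32.6%, 22.0% and 34.0%, and 26.6% and 51.3%. The 60-min share of downstream flanks was 2.67 and 2.43 times that in NT, that of gene bodies 1.29 and 1.66 times and that of upstream flanks 1.25 and 1.57 times, so only the downstream flanks had a larger ratio than the bodies. Flanks of FOSB, JUNB, IER2 and ATF3 take in other protein-coding genes.

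Apart from their peaks, the 10 genes shared a GC-rich start. The GC content within 1 kb of the start was between 56.0% (IER3) and 73.5% (JUND) with a median of 64.4%, above the median of all genes, 55.9%, in 10 of 10. The ratio of observed to expected CpG was above the median of all genes, 0.635, in 10 of 10 as well, with a median of 0.745. GC skew downstream of the start, the excess of G over C on the coding strand that is known to favour R loops, was not high: its median was 0.0147 against 0.0453 over all genes, and only JUN and IER2 were above. The restriction fragment that holds the start had a median of 3187 bp against 1913 bp, longer than the median of all genes in 8 of 10. The median gene body was 3615 bp against 27220 bp.

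Other primary response genes, 43 in a list of transcription factors, phosphatases and growth regulators with similar induction, gave a like picture. A DRIP peak in both replicates was present at 31 of the 43 in NT, 38 after 5 min and 41 after 60 min, and 29 (67.4%) had one in all 6 lists. At 0 of the 43 was a peak lost, against 2.18% of all genes at 5 min and 1.55% at 60 min. CCN2, a secreted matrix protein, was gained at 5 and at 60 min, as DUSP1 was, and EGR2, a relative of EGR1, was gained at 60 min. Of all genes, 4.64% were gained at 5 min and 6.92% at 60 min. The share of their windows under DRIP peaks was 13.9% and 29.3% in NT, 15.5% and 31.6% after 5 min and 25.0% and 48.6% after 60 min. In both replicates the 5-min share was above NT, by 1.56 and 2.34 percentage points, where at the 9 immediate early genes the changes were -3.83 and 0.254 and over all genes -0.945 and -1.02. RNase H peaks in both replicates were present at 0, 5 and 3 of the 43 in NT, 5-min and 60-min cells (0%, 11.6% and 6.98%). Of all genes they were present at 0.871%, 8.31% and 13.1%, and of the short genes at 0.291%, 3.54% and 4.18%. At 60 min the list thus lay below all genes and above the short ones, on 3 genes. Over the 12 lists, the genes whose best percentiles were closest to the median profile of the 9 immediate early genes were PIK3R2, PHLDA3, CTRL, IRAK1 and CCDC115, with a mean absolute difference between 0.822 and 1.47 percentile points. Among the 9 genes themselves JUND was closest to that profile, at 1.82 points, and DUSP1 farthest, at 26.4.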

How the data were processed

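HCT116 cells were assayed by DRIP-seq in 18 libraries (6 DRIP, 6 RNase H, 6 input), grouped by the treatment and replicate in the sample labels. Reads had been trimmed (Cutadapt), mapped to hg19 (BWA) and cleared of duplicates and blacklisted regions by the authors, who ran MACS2 on each library with its own input as control and pooled no replicates. The fold enrichment (a ratio of signal to input) deposited for each peak was used only as a percentile within its list. Deposited values of −log10 p and of −log10 q served for alternatives, with the lowest −log10 q between 1.301 and 1.311. The deposited score is a rescaled −log10 q and was not used. The lists hold no counts, depth or spike-in scaling, so all values are called peaks, not signal.

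Gene bodies came from GENCODE release 44 on GRCh37, and start sites from MANE Select transcripts where given (18922 of 20162 genes). A peak belonged to a window with at least 1 bp of overlap. Promoter windows were 1 kb to each side of the start. Groups were compared with two-sided exact permutation tests, and DRIP with RNase H by exact sign flips over 6 pairs. The steps were tested on simulated lists, where 700 of 700 regions received their category. Alternatives were a stricter −log10 q, lists of equal length, other windows, summits, ranks by −log10 p, other merging, each replicate left out, and removal of DRIP peaks that meet RNase H peaks. IER3 was left out after the empty stretch around it was seen. The 10 genes, the 43 related genes and the tests were chosen with earlier results of these data known. The text names all 10 genes, up to 5 related genes gained or lost, and the 5 genes closest in profile. The further related genes named under other observations were chosen after their values were seen. Sequences were read from GRCh37. Analyses used Python 3.11.15, NumPy 2.4.6, pandas 2.3.3, SciPy 1.17.1 and Matplotlib 3.10.9.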

Additional observations from a re-analysis of the deposited data

Results flagged for a closer look

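At 2 genes the DRIP and the RNase H lists moved in opposite directions from NT to 5 min of CPT in both replicates, and the difference was not tested. The share of all genes that did so was not computed. Both RNase H lists were also longer at 5 min (3439 and 50353 peaks) than in NT (473 and 15790). At FOSB the share of the window under DRIP peaks changed by -9.14 and -7.0 percentage points, while the share under RNase H peaks was higher by 2.05 and 3.17 points, a difference of -10.7 points on average. At IER2 the DRIP changes were -11.5 and -3.08 points and the RNase H changes 3.77 and 69.5 points, a difference of -43.9 points on average. The RNase H value of FOSB in 5-min replicate 1 comes from a single peak of 352 bp past the gene's 3′ end, at percentile 2.82. The RNase H value of IER2 in 5-min replicate 2 comes from peaks of 7574 and 3192 bp at percentiles 99.6 and 99.0, with a further peak of 670 bp downstream.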

How the results depend on the processing

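Across 15 alternatives, 219 of 276 values of the 27 main results kept their direction, side of the threshold or size. With a −log10 q of at least 3, and also with lists of equal length (30314 DRIP and 473 RNase H peaks), genes with an RNase H peak in both replicates numbered 1 at 5 min and 0 at 60 min, and promoters 1 and 0. With equal lists the RNase H difference between 60 and 5 min was -0.462 points and 1 region was gained at 5 min. Over gene bodies alone, RNase H genes numbered 1 and 0, gained regions 1 at 5 min and 1 at 60 min, and the NT median percentile was 95.2, as it was with flanks of 2 kb, where 2 regions were gained at 60 min. With flanks of 10 kb, 1 region was lost at 5 min and 1 at 60 min. With the summit required inside the window, promoters with a DRIP peak numbered 2, 4 and 3 in NT, 5 min and 60 min, and with an RNase H peak 1 at 5 min and 0 at 60 min. With a peak required over the start site itself, DRIP promoters numbered 5 at 5 min and RNase H promoters 1 and 0. Removal of DRIP peaks that met an RNase H peak left 5 genes and 1 promoter at 5 min, 3 genes and 0 promoters at 60 min, median percentiles of 78.0 and 69.9, 0 regions with no change, 0 gained at 60 min, 1 lost at 5 min and 1 at 60 min, a difference of -9.15 points between 60 min and NT, and 3.58 points between DRIP and RNase H (exact p = 0.75). Fewer DRIP peaks remain there by construction, and the cause of the other shifts was not tested. A looser definition of absence gave 8 regions gained at 60 min, and merging across 1000 bp gave 3.

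Leaving out each replicate in turn, the genes with an RNase H peak numbered 0 to 2 in NT, 3 to 8 at 5 min and 1 to 9 at 60 min, and the promoters 2 to 7 at 5 min and 1 to 9 at 60 min. The DRIP difference of 5 min from NT ranged from -3.83 to 0.254 points, the RNase H difference of 60 from 5 min from -2.02 to 19.8, and DRIP minus RNase H from 14.4 to 18.8 (exact p = 0.25, the smallest for 3 pairs). At 5 min, 3 to 5 regions were gained and 2 to 4 lost, and at 60 min 15 to 17 were gained and 0 to 1 lost. With the replicate number as a block, DRIP minus RNase H stayed at 16.6 points with p = 0.5, the smallest exact p for 2 blocks, and no treatment difference changed its call. The numbers name biological replicates, and the labels do not say that they pair the samples. Counting IER3 with no peak, an alternative chosen after seeing the data, changed no call. It could not have done so, because it scales the share of every library by the same factor.

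By gene, the difference of 60 min from NT in the share of the window was positive for all 9 and turned negative at IER2 with equal lists (-0.390 points), with gene bodies alone (-1.11) and with summits (-30.4), and at JUND with gene bodies alone (-5.29). Without the DRIP peaks that met RNase H peaks it was -10.6 at FOS, -9.40 at FOSB, -10.1 at JUN, -4.34 at JUNB, -28.4 at JUND, -32.8 at EGR1 and -32.8 at IER2, and it stayed positive at ATF3 and DUSP1. In replicate 1 that step removed NT or 60-min peaks at EGR1 only, so the negative means at the other genes come from replicate 2. With 2 replicates, no test between treatments can pass 0.05, and list length, which differed up to 33.4-fold between replicates, limits what a missing peak can show.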

Other observations

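Among the 43 related response genes, 11 had more bases under DRIP peaks in both 5-min lists than in either NT list and 3 had fewer, and at 60 min 19 had more and 0 fewer, against 14.1%, 15%, 24.6% and 6.68% of all genes. The genes named next were chosen after their values were seen. At BTG2, an antiproliferative p53 target, the mean shares of the window under DRIP peaks in NT, 5-min and 60-min cells were 4.70%, 38.5% and 72.9%. At ID1, an inhibitor of basic helix-loop-helix factors, it was 19.6%, 68.9% and 73.9%, and at MYC 20.2%, 47.1% and 48.9%. The 2 FOS relatives in the list behaved otherwise: at FOSL1 the shares were 67.5%, 55.4% and 72.1%, and at FOSL2 22.9%, 18.8% and 32.3%. At MAFF, a small MAF factor, the shares were 56.6%, 24.1% and 55.1%. These shares are means of 2 replicates of DRIP peaks as called. Every gene named in this paragraph also had RNase H peaks in replicate 2 at 5 and at 60 min, with best percentiles from 84.9 to 99.9.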
